A study of Mus musculus with 8 samples.

Results

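The C1q complement subunits are the products of 3 mouse genes, C1qa, C1qb and C1qc, each of which had 1 probe on the array, so that 3 of 33012 probes and 3 of the 13840 genes named by a probe with 1 symbol are described here. The genes were chosen by name, with the liver diet difference of C1qb already known from these arrays, and so their diet and strain differences are given as descriptions with no test. The study used 8 pools of RNA, each of 6 male mice and each hybridised to 1 chemiluminescent array with a single channel, and no pool was repeated. The groups were liver of B6.CAST-17 congenic mice after 24 h of a 2-choice diet, liver of C57BL/6J (B6) mice on the same diet, liver of congenic and of B6 mice on chow, and the same 4 combinations in hypothalamus. B6.CAST-17 is a homozygous congenic strain named for chromosome 17. The 2-choice diet offered a carbohydrate and a fat diet side by side (78% of the main nutrient with 22% protein in each), and the pooled mice had been picked for divergent nutrient intake. No allele or agent other than these was given in the labels, and ages were not given there.

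C1q is the recognition molecule of the classical complement pathway. It is built from A, B and C chains, each with a collagen-like stalk and a globular head, and all of these chains are needed to assemble it. It binds antibody complexes, dying cells and, in brain, synapses, and with the proteases C1r and C1s it starts the cleavage of C4 and C2. Most complement proteins are made by hepatocytes, whereas C1q comes mainly from macrophages, which in liver are the Kupffer cells and in brain the microglia.

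The genes lie next to one another on chromosome 4 (GRCm38.p6, minus strand for C1qb and C1qc), outside the chromosome for which the congenic strain is named. C1qb spans chr4:136880126-136886200, C1qc chr4:136889801-136892936 and C1qa chr4:136895916-136898844, with 0 other annotated genes between them. Of the 10 nearest genes in the reference table, 5 on each side, 2 had a probe. Epha8, an ephrin receptor gene, passed the level filter in liver and had a mean liver diet difference of 1.40 on the log2 scale, higher in the 2-choice pools. It passed through the B6 2-choice pool, at 11.11 against 9.05 on chow. In the congenic livers it was under the filter level on both diets (8.82 on 2-choice, 8.08 on chow). Zbtb40 was below the filter in both tissues.

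Because the subunits were lower together in liver, the 250 bases upstream of the RefSeq start are shown for the members matched in the RefSeq promoter table (GRCm38.p6), which were 2 of the 3, C1qb and C1qc. Capitals mark GAGGAA, a core bound by PU.1, on either strand. PU.1 is a transcription factor of macrophages.
C1qb, chr4:136886201-136886450, minus strand: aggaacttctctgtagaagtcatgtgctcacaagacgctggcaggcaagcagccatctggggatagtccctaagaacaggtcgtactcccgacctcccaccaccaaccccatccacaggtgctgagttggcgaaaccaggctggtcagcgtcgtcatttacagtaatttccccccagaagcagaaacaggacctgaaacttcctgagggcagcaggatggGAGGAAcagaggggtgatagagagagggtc
C1qc, chr4:136892915-136893164, minus strand: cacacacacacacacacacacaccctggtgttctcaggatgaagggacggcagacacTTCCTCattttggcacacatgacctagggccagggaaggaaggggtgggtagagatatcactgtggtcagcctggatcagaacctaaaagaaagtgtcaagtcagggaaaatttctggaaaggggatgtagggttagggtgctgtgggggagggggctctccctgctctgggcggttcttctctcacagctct
The C1qb window held 1 GAGGAA, whose first base lay 30 bases before the start. The C1qc window held 1 GAGGAA, read on the opposite strand at 193 bases (TTCCTC as printed). Of 32851 RefSeq windows of this length, 23.3% held GAGGAA on either strand, so it was common, and a match describes letters only. The RefSeq start used for C1qc lies within the gene span given above, so that 22 bases of its window fall inside that span.

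All levels below are log2 probe intensities after quantile normalization within a tissue (4 arrays) unless the text says otherwise. The deposited arrays had been scaled in pairs of strains: within each tissue and diet the sorted intensities of the congenic and B6 arrays differed by at most 0.243%. Median deposited intensity was 702 on 2-choice and 700 on chow in liver, but 1338 on 2-choice and 560 on chow in hypothalamus. Each scaling set thus held 1 diet, so that the effect of diet and that of the scaling cannot be told apart, and in hypothalamus the direction of a diet difference depends on the scaling. The free-text descriptions of several samples disagree with their titles, and that of the hypothalamus array labelled congenic chow names C57BL/6J. Groups follow the titles, which the tissue markers matched: Clec4f, a lectin of Kupffer cells, was at 13.87 to 15.36 in liver and 8.15 to 9.67 in hypothalamus, and the microglial Tmem119 was at 8.58 to 9.19 in liver and 12.75 to 13.32 in hypothalamus. On the hypothalamus array labelled congenic chow, the microglial receptor gene P2ry12 stood apart at 8.59, against 11.08 to 12.70 on the other hypothalamus arrays.

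In liver all 3 subunits were lower after 24 h of the 2-choice diet than on chow, in both strains. C1qb, the B chain, had the largest mean difference of the 3. C1qc had the smallest mean difference, although in B6 livers that of C1qa was smaller. C1qb was at 12.58 in the congenic and 12.78 in the B6 pool on 2-choice, against 14.63 and 14.45 on chow. As deposited these were intensities of 6124 and 6964 on 2-choice, against 25659 and 22895 on chow. Both 2-choice livers lay well below both chow livers, and the strains differed little beside that gap. C1qb was thus 4.13-fold lower in the congenic and 3.19-fold lower in the B6 livers (mean log2 difference -1.86 ± 0.22 SE, 2 pairs).

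C1qa, the A chain, was at 14.62 (congenic) and 15.01 (B6) on 2-choice, against 15.98 and 15.90 on chow. The diet groups did not overlap, and the difference was 2.56-fold in congenic and 1.86-fold in B6 livers (mean log2 -1.13 ± 0.19 SE). C1qc, the C chain, was at 13.37 (congenic) and 13.72 (B6) on 2-choice, against 14.45 and 14.72 on chow. It too showed no overlap, at 2.12-fold in congenic and 2.00-fold in B6 livers (mean log2 -1.04 ± 0.20 SE). Lower in both liver pairs at any size, a looser condition than no overlap, were 30.9% of all probes tested. The SEs come from a fit of all 8 arrays with 2 residual degrees of freedom, in which the spread is made of differences between pools and holds no repeat of a pool. In that fit eBayes drew each SE toward the spread of other probes of like level. An SE therefore does not measure the spread of that gene's own pools alone.

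The size of the difference was not the same for the chains. The difference of C1qb minus that of C1qa was -0.69 log2 units in the congenic and -0.78 in the B6 pair, and minus that of C1qc it was -0.96 and -0.68. C1qa and C1qc differed from each other by -0.27 in the congenic pair and 0.10 in the B6 pair, so their order turned between strains. By mean difference C1qb stood 137th from the lowest of the 19807 probes above the filter level in liver, C1qa 850th and C1qc 1046th. A probe was kept when its mean log2 level reached the 40th percentile of its tissue (9.04 in liver, 9.26 in hypothalamus), and all 3 members passed in both tissues.

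**Figure D1:**
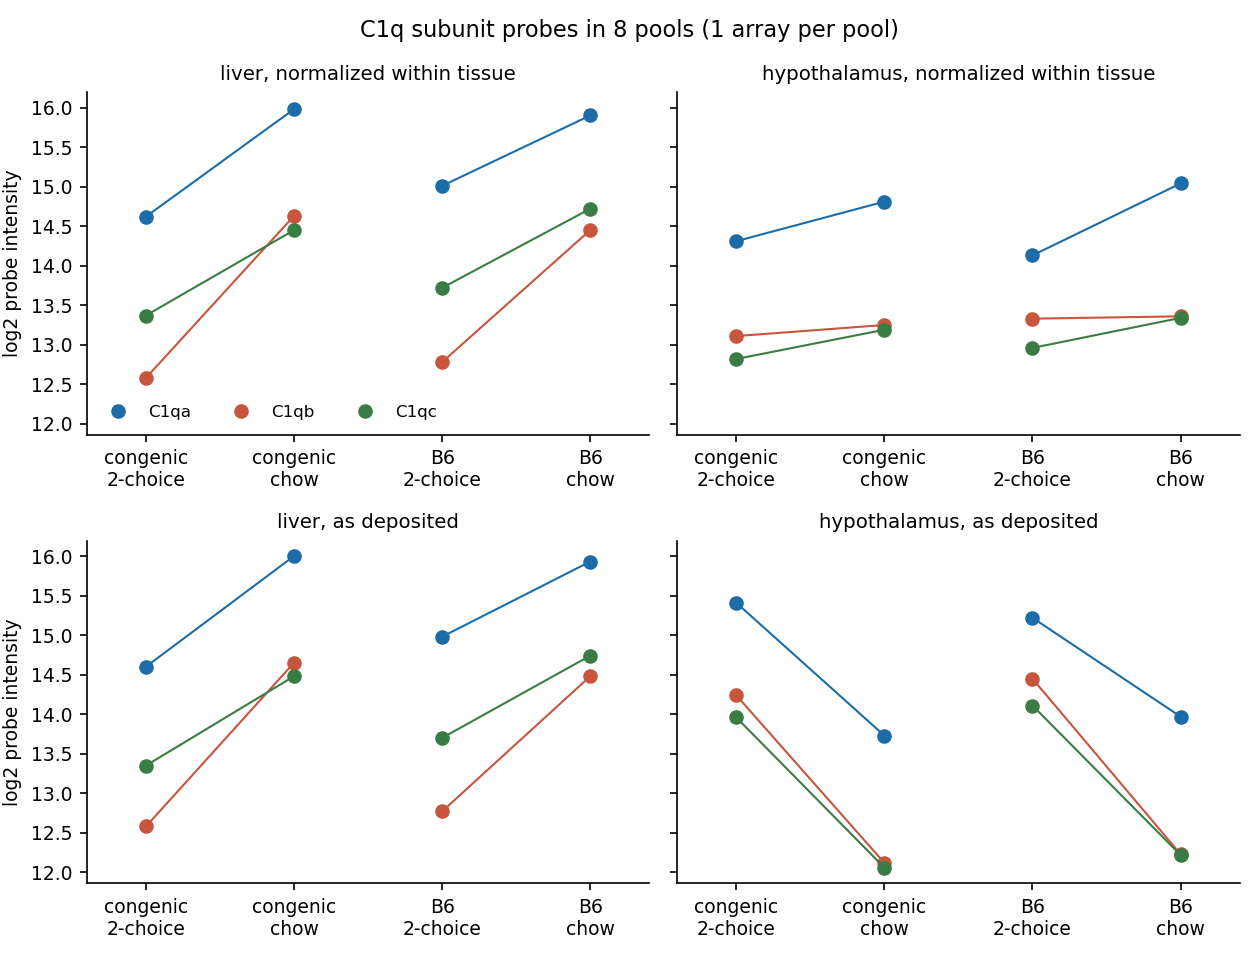
Log2 probe intensity of C1qa, C1qb and C1qc on each of the 8 arrays, 1 point per pool, with lines joining the 2-choice and chow pools of a strain. The upper panels show values normalized within tissue and the lower panels values as deposited. In liver the 2-choice points lie below the chow points on either scale, with C1qb at 12.58 and 12.78 against 14.63 and 14.45 after normalization. In hypothalamus the slope turns between the scales.

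All 3 members were at least 1.5-fold lower in the 2-choice livers of both strains, as were 1137 of 19807 probes (5.74%), while 5.92% were at least as much higher. Since this contrast led to the choice of the members, nothing is read from that count. The median diet difference over all probes tested in liver was -0.01. Within the fit of all 8 arrays limma called 0 of 19807 probes for diet in liver (0%, adjusted p under 0.05), with 1731 at an unadjusted p under 0.05. The diet difference of the congenic pair minus that of the B6 pair was -0.46 log2 units for C1qa, -0.37 for C1qb and -0.09 for C1qc. With 1 pool per strain and diet, these gaps have no error of their own.

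In hypothalamus the members' diet differences were smaller after normalization and changed sign with the scaling. C1qa was at 14.31 (congenic) and 14.13 (B6) on 2-choice, against 14.81 and 15.04 on chow, a mean log2 difference of -0.70 ± 0.19 SE. C1qc was at 12.82 and 12.96 on 2-choice, against 13.19 and 13.34 on chow (-0.38 ± 0.21 SE). C1qb was at 13.11 and 13.33 on 2-choice, against 13.25 and 13.36 on chow (-0.08 ± 0.22 SE). C1qa and C1qc showed no overlap between diets, whereas the C1qb groups overlapped. Among all probes tested there, 29.7% were lower in both pairs at any size, a looser condition than no overlap.

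On the deposited scale the same probes were higher in the 2-choice hypothalamus pools, by mean log2 differences of 1.46 for C1qa, 2.17 for C1qb and 1.89 for C1qc. The median difference of all probes tested there was 2.02 on that scale, 0.76 after centring on medians and 0.07 after quantile normalization. Relative to that median, C1qa and C1qc lay below it under all 3 of these scalings, and C1qb lay above it in the first and the second. None of the 3 members was at least 1.5-fold lower in both strains in hypothalamus, where 9.49% of the 19807 probes were and 12.4% were as much higher. The fit of all 8 arrays called 97 probes for diet in hypothalamus (0.49%), by limma at an adjusted p under 0.05.

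The liver diet difference minus the hypothalamus one was -1.90 log2 units for C1qb in congenic and -1.65 in B6 pools after normalization within tissue. For C1qc this gap was -0.71 and -0.62. For C1qa it was -0.86 in congenic and 0.01 in B6 pools, so the B6 pools gave no such gap. These gaps were not tested, and they share the dependence on scaling of the hypothalamus values.

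**Figure D2:**
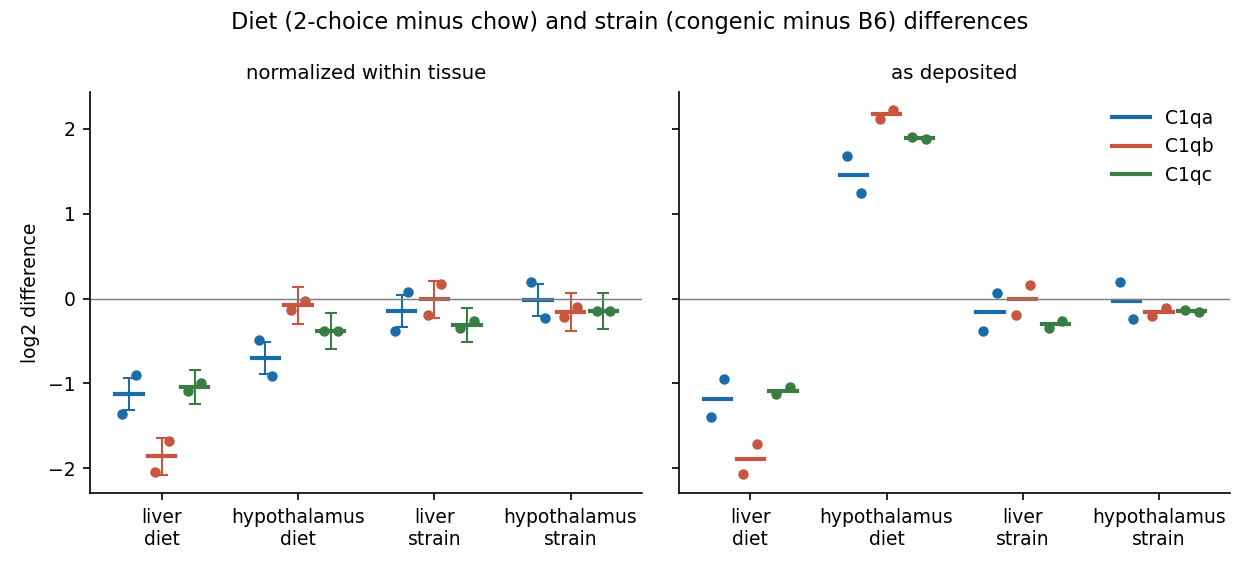
Log2 differences of the C1q probes for diet (2-choice minus chow) and strain (congenic minus B6) in each tissue. Points are the 2 matched pairs (diet: congenic left, B6 right; strain: 2-choice left, chow right), thick bars their mean, and error bars in the left panel the SE of the 8-array fit. The liver diet means of -1.13, -1.86 and -1.04 hardly move between panels, while the hypothalamus diet means are below 0 on the left and at 1.46, 2.17 and 1.89 on the right.

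Between strains the members differed little. In liver C1qc was lower in the congenic pool by -0.35 on 2-choice and -0.26 on chow (mean -0.31 ± 0.20 SE). C1qa was at -0.38 on 2-choice and 0.08 on chow, and C1qb at -0.20 and 0.17, so for both the sign turned with diet. In hypothalamus C1qb was at -0.22 and -0.10, C1qc at -0.15 in each pair, and C1qa at 0.19 on 2-choice and -0.23 on chow, as labelled. Without the 2 hypothalamus chow arrays these strain differences are those of the 2-choice pair alone. No member reached 1.5-fold in both pairs of a tissue in either direction. Among all probes 7.03% were that much lower and 4.18% that much higher in congenic livers, and 2.37% lower and 2.58% higher in congenic hypothalamus. limma called 0 of 19807 probes (0%) for strain in either tissue, with 1318 in liver and 983 in hypothalamus at an unadjusted p under 0.05.

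The contrast between tissues did not enter the choice of the members and was tested, after quantile normalization over all 8 arrays, with the 4 combinations of strain and diet as matched pairs. C1qc was higher in liver. Its levels on this scale were 13.31 (congenic, 2-choice), 13.62 (B6, 2-choice), 14.28 (congenic, chow) and 14.52 (B6, chow) in liver, against 12.81, 12.98, 13.24 and 13.42 in hypothalamus. Liver was higher in 4 of 4 pairs, although the lowest liver pool lay below the highest hypothalamus pool. The difference was 1.76-fold (log2 0.82 ± 0.21 SE, 95% interval 0.34 to 1.29, limma adjusted p = 0.00895).

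C1qa averaged 15.10 ± 0.59 in liver and 14.81 ± 0.49 in hypothalamus (SD, n = 4 each), and C1qb 13.53 ± 0.97 and 13.32 ± 0.13. Neither passed: the difference was 0.29 ± 0.18 SE for C1qa (95% interval -0.12 to 0.69, limma adjusted p = 0.22) and 0.21 ± 0.32 SE for C1qb (-0.51 to 0.92, limma adjusted p = 0.63). For C1qb the pairs pointed both ways, with liver lower by -0.54 (congenic) and -0.62 (B6) on 2-choice and higher by 1.13 and 0.85 on chow. Of the 19807 probes tested, 24.1% were called higher and 25% lower in liver, so 1 call among 3 members is near the background. The call for C1qc is lost on the deposited scale, where its difference was 0.98 (limma adjusted p = 0.388). C1qa passed, as C1qc did, with median centring and with quantile normalization within tissue. Without the hypothalamus chow arrays only the 2-choice pairs are left, and C1qb was lower in liver there (-0.58). That value holds the low 2-choice liver level of C1qb, which was known when the members were chosen, so no p is given for it.

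The rest of the complement system gave a background for the liver values. Of 58 genes in 6 complement lists, 40 had a probe with 1 symbol and 34 passed the level filter in liver. Of these 5 were at least 1.5-fold lower and 2 higher in the 2-choice livers of both strains, beside the 5.74% and 5.92% of all probes, and the median of the 34 was -0.02. Of the 7 listed classical pathway proteases and inhibitor, 3 were measured and 0 of these were lower or higher, and values for C1s and C4 are not given here. C1ra, a C1r protease gene, was at 0.37, and Serping1, the C1 inhibitor gene, at 0.21. C2, cleaved by C1s, was at -0.03, and Cfb, its counterpart in the alternative pathway, at -0.36.

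The 5 lower genes were Fcna (mean log2 -1.31), the ficolin A gene, a lectin made by macrophages in mouse, Vsig4 (-2.19), a complement receptor of Kupffer cells, Itgb2, the beta chain of complement receptors of leukocytes (8.69 and 8.97 on 2-choice, both under the filter level, against 10.19 and 10.62 on chow), and the membrane regulators Cd55 (-1.51) and Cr1l (-1.47). The higher ones were C6 of the terminal pathway (1.02) and the anaphylatoxin receptor gene C3ar1 (1.32). C3ar1 was at 8.92 in the congenic chow liver, under the filter level. C2 and Cfb lie on chromosome 17. Their liver strain differences were 0.23 on 2-choice and -0.17 on chow for C2, and 0.35 and 0.05 for Cfb. Of the 34 complement genes, 2 were at least 1.5-fold lower in congenic livers on both diets (C3ar1 and the receptor gene Sirpa) and 0 higher, beside 7.03% and 4.18% of all probes.

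Some but not all markers of the cells that make C1q were lower with it in the 2-choice livers. All 9 listed Kupffer cell genes passed the filter, and 5 were at least 1.5-fold lower in the 2-choice livers of both strains, with 0 higher (median -1.33), beside 5.74% lower and 5.92% higher among all probes. Clec4f was at 13.88 (congenic) and 13.87 (B6) on 2-choice, against 15.36 and 15.06 on chow. Cd5l, a secreted macrophage protein gene, was at 14.51 and 14.84, against 16.07 and 16.23. The phagocytic receptor genes Vsig4 (10.99 and 11.89, against 13.57 and 13.69) and Timd4 (12.04 and 12.34, against 13.05 and 13.20) and the folate receptor gene Folr2 (11.99 and 12.40, against 13.53 and 13.62) behaved alike. For each of these 5 genes the diet groups did not overlap, beside 30.9% of all probes that met the looser condition of being lower in both pairs at any size.

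The other 4 Kupffer genes were closer to 0 or split. The haemoglobin scavenger receptor gene Cd163 was at -0.30, the iron exporter gene Slc40a1 at -0.27 and Clec1b at -0.34, while Marco was at -3.44 in congenic and 0.59 in B6 livers. Summed over the 9 genes, normalized intensity was 114631 (congenic) and 126520 (B6) on 2-choice, against 233067 and 224248 on chow. Of the 9 genes, 1 was under the filter level in the congenic 2-choice liver and 0 in the other livers. Of 11 measured genes of macrophages and microglia in general, 6 were lower and 0 higher (median -1.22), with summed intensities of 62080 and 73043 on 2-choice, against 157311 and 137400 on chow. They were Ctss (-1.55), a lysosomal protease, Lyz2 (-1.22), the lysozyme of myeloid cells, the IgG receptors Fcgr3 (-1.04) and Fcgr1, Cd14 and the NADPH oxidase gene Cybb. The last of these passed the filter through the chow pools: Cybb was at 8.45 and 8.65 on 2-choice, both under the filter level, against 11.46 and 10.95 on chow. Fcgr1 (7.87 and 9.18, against 10.05 and 9.87) and Cd14 (9.62 and 7.23, against 10.51 and 10.02) were each under it in 1 of the 2-choice livers. Among the other 5, Laptm5 (0.28) and Ly86 (0.22) had means above 0.

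In these bulk pools, fewer cells of a type and less RNA per cell cannot be told apart, and the part of these and the following markers in the C1q values was not tested. Beside the macrophage genes, 3 of 8 sinusoidal endothelial genes were lower and 0 higher in liver (median -0.60; summed intensity 94026 and 82378 on 2-choice, against 133438 and 124660 on chow), namely Clec4g, Pecam1 and the Fc receptor gene Fcgr2b. These counts too stand beside 5.74% lower and 5.92% higher among all probes. Of the dendritic and B cell list 5 of 9 measured genes passed the filter, and 4 were lower and 0 higher (median -1.38). Those were Cd74, H2-Aa, H2-Ab1 and Flt3, the last at 8.59 and 8.54 on 2-choice, both under the filter level, against 10.42 and 9.47 on chow (list sums of 15968 and 25108 on 2-choice, against 37781 and 53977 on chow). Of the T and NK cell list 3 of 7 measured genes passed and 0 were lower or higher (sums over the 7 of 5642 and 5981, against 7302 and 7080). Of 5 neutrophil genes 1 was lower (S100a9) and 1 higher (Mpo), with list sums of 7693 and 6498, against 5968 and 4749. S100a9 was under the filter level in the B6 2-choice liver (8.23). Of 6 hepatocyte genes 0 were lower or higher, with a median of 0.07 and sums of 10093255 and 7648458, against 10647265 and 9025015. Of the red cell list, Hba-a1 was lower (-1.27) and Alas2 was at 0.22 (sums of 95491 and 146979, against 190900 and 209341).

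**Figure D3:**
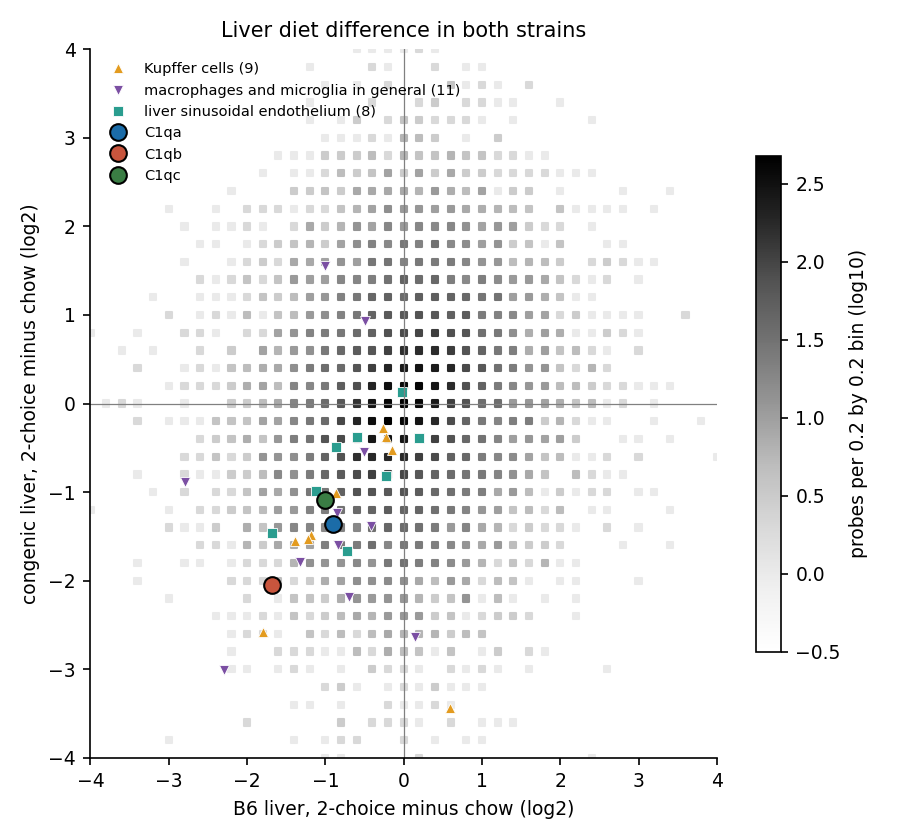
Liver diet difference (2-choice minus chow, log2) in B6 on the horizontal and congenic pools on the vertical axis. Grey squares count the 19807 probes tested in bins, and coloured marks are the C1q subunits and the measured marker genes of 3 cell types. C1qa, C1qb and C1qc lie at the lower left, with the Kupffer markers Clec4f and Cd5l near them and Vsig4 lower on the vertical axis. Axes end at 4, and 79 probes lie beyond.

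In hypothalamus the microglial list had 8 measured genes, of which 7 passed the filter. None was at least 1.5-fold lower in both 2-choice pools, and P2ry12 and the lectin gene Siglech were higher, both with their lowest value on the array labelled congenic chow, beside 9.49% lower and 12.4% higher among all probes. The list's median was 0.21, beside 0.07 for all probes, against mean differences of -0.70, -0.08 and -0.38 for C1qa, C1qb and C1qc. Its summed intensity was 30095 (congenic) and 32698 (B6) on 2-choice, against 24187 and 25610 on chow. Genes of other cells also moved in both 2-choice hypothalamus pools, in either direction. Higher ones included Mag and Cnp of 4 oligodendrocyte genes (list sums of 205650 and 261103, against 138984 and 116486). From the hepatocyte list 4 genes passed, and Alb, Ttr and Cyp2e1 were higher. Summed over all 6 measured genes of that list, intensity was 11438 (congenic) and 7141 (B6) on 2-choice, against 2675 and 3466 on chow. Of the 6, 2 (congenic) and 3 (B6) were under the filter level on 2-choice, and 5 and 4 on chow. Alb was under the filter level in both chow pools (8.81 and 8.75), Ttr in the congenic chow pool (8.81) and Cyp2e1 in the B6 chow pool (8.68). The neuronal Stmn2, the astrocyte Slc1a3 and the endothelial Kdr and Pecam1 were higher too. Pecam1 was under the filter level in the congenic chow pool (8.46). Lower were the neuronal Syt1, the endothelial Oit3, the dendritic cell Xcr1 and the NK cell Nkg7. Of these, Oit3 (8.83 and 8.76) and Xcr1 (8.83 and 9.13) were under the filter level in both 2-choice pools. The part of all these genes in the C1q values was not tested. In liver 6 of these 8 microglial genes lay below the filter level. The general macrophage genes gave 0 lower and 1 higher of 6 that passed in hypothalamus. The higher one was Laptm5, under the filter level in the congenic chow pool (8.23). From the Kupffer list 4 of 9 genes passed there, with 2 lower (Cd163 and Clec1b) and 1 higher (Slc40a1) in both 2-choice pools. Clec1b was under the filter level in the B6 2-choice pool (9.11). Ctss, which in liver was lower with C1q, was at 14.87 and 14.98 on 2-choice, against 14.99 and 15.09 on chow in hypothalamus.

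**Figure D4:**
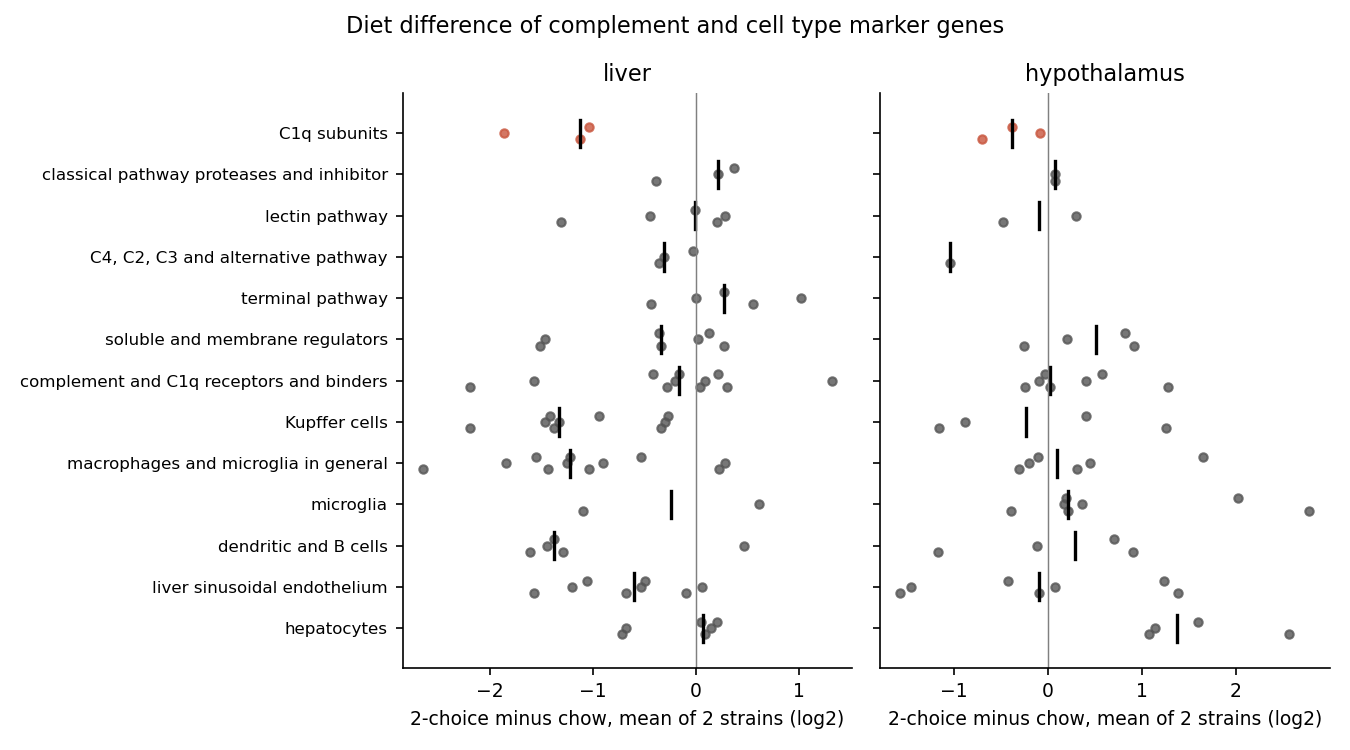
Mean diet difference of the 2 strains (2-choice minus chow, log2) for each gene that passed the level filter, by list, in liver and hypothalamus. Points are genes and black bars list medians. In liver the medians of the C1q subunits (-1.13), Kupffer genes (-1.33), general macrophage genes (-1.22) and dendritic and B cell genes (-1.38) lie left of those of the complement lists. In hypothalamus the values rest on normalization within tissue.

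With each probe centred on its tissue mean, the subunits shared the liver diet step that led to their choice. In hypothalamus C1qb (-0.15 and 0.07 on 2-choice, against -0.01 and 0.09 on chow) did not follow C1qa (-0.26 and -0.44, against 0.24 and 0.46). Pearson's r over both tissues, given as a description over 8 arrays that share their scaling sets, was 0.942 for C1qa with C1qc, 0.920 for C1qb with C1qc and 0.851 for C1qa with C1qb. The genes most like the mean profile of the 3, among 8487 probes with 1 symbol that passed in both tissues, were led by Fcgr3 (r = 0.990), the low-affinity IgG receptor that is expressed by macrophages. Ctss (0.974) and the sialic acid lectin gene Siglecg (0.979) were also among the 10. The other 7 were Csad (0.983), an enzyme of taurine synthesis, Mrm3 (0.982), Pigf (0.976), Zc3hc1 (0.976), Cyp3a16 (0.973), Supt4a (0.972) and Nanp (0.972). In the list of 10, liver diet differences ran from -1.97 (Siglecg) to -0.63 (Supt4a), and those in hypothalamus from -0.57 (Cyp3a16) to -0.10 (Supt4a). In all, 56 of the 8487 probes had an r above 0.9, a count from which the members were not left out. The likeness thus went beyond the 10 genes named.

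**Figure D5:**
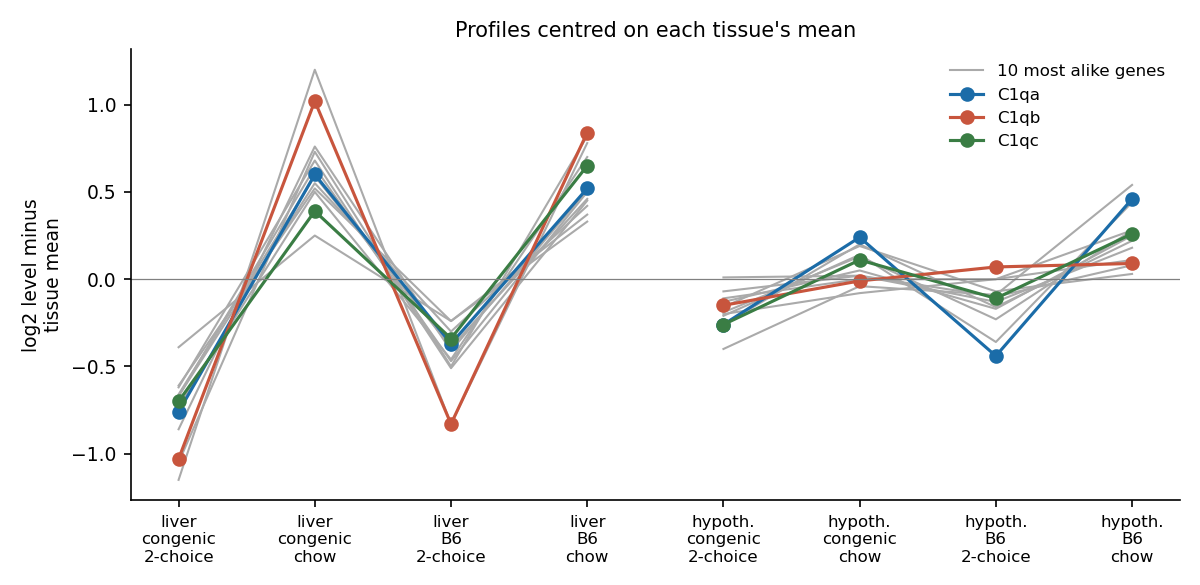
Log2 level minus the mean of its tissue on each of the 8 arrays for C1qa, C1qb, C1qc (colours) and the 10 genes most like their mean profile (grey, r of 0.972 to 0.990). The liver pools alternate between low on 2-choice and high on chow, and the hypothalamus pools vary less.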

How the data were processed

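The authors deposited 1 table of linear intensities for 33012 probes on 8 arrays. How they corrected background or normalized is not given in the sources used here. Their detection flags were left aside. Of the probes, 14411 had 1 symbol in the platform annotation, 247 several and 18354 were unnamed here, and 14402 of the single-symbol probes were matched to the reference gene table by Entrez ID. The gene's brightest probe was used.

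Intensities were taken to log2 from the deposited table and quantile normalized within tissue (4 arrays, or all 8 for the tissue contrast). Probes at or above the 40th percentile of mean level were tested with limma 3.58.1 under R 4.3.3, using eBayes with a trend and Benjamini-Hochberg adjustment at 0.05. Diet and strain within tissue came from 1 fit of 8 arrays (2 residual degrees of freedom), the tissue contrast from matched pairs (3). Since no pool was repeated, p-values reflect the spread among pools alone. On simulated data of 19807 probes, the tissue fit recovered 19 of 100 changes of 1 log2 unit and 69 of 100 of 2, with 7 false calls. The liver diet fit recovered 19 and 42, with 12. The simulated noise was independent between arrays, with no scaling sets and no differences between matched pairs. Only 100 probes were changed at each size, whereas 9729 were called between tissues on the arrays. These counts therefore do not give the power of the fits on the arrays.

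Members and lists were chosen with earlier results of these data known. Genes named are the members, list genes at least 1.5-fold apart with 1 sign in both pairs, list extremes or genes whose role bears on C1q, the latter picked after their values were seen, and the 10 most alike profiles. Other scalings, filters, designs and left-out arrays were tried. The number of arrays limits precision.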

Additional observations from a re-analysis of the deposited data

How the results depend on the processing

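The liver diet differences of the 3 members, which led to their choice, were below 0 under all 7 alternatives each. For the runs that leave out an array this was fixed in advance, since each returns 1 of the pair differences given above. Leaving out 1 liver array moved C1qa between -1.36 and -0.90, since 1 pair is left. The sign in hypothalamus turned with scaling: as deposited C1qa, C1qb and C1qc were at 1.46, 2.17 and 1.89, and after median centring at 0.21, 0.91 and 0.64. The strain differences near 0 turned with the pair kept. Leaving out an array gave -0.38 to 0.08 for C1qa and -0.20 to 0.17 for C1qb in liver, and -0.23 to 0.19 for C1qa in hypothalamus (0.19 without both hypothalamus chow arrays).

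Between tissues, C1qa passed with median centring (1.10, limma adjusted p = 0.015) and with quantile normalization within tissue (0.81, limma adjusted p = 0.00454). C1qc did not pass as deposited (0.98). C1qb ran from -0.10 to 0.48 over left-out arrays and was at -0.58 without both hypothalamus chow arrays. Probes called between tissues numbered 9729, and 5579 as deposited. Counts for diet and strain differed between fits and scalings. The 4 arrays of a tissue alone gave 639 for diet and 252 for strain in liver, and 753 and 21 in hypothalamus. In hypothalamus the deposited scale gave 15430 for diet and 1 for strain, and eBayes without trend gave 0 for diet. Scalings added after the data were seen left the liver list counts within 1.5 times, and the deposited scale gave 189 probes 1.5-fold lower in both hypothalamus pairs in place of 1880. Each gene had 1 probe, so the mean over probes was not run. Where no cause is shown by the construction, the cause was not tested.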

Other observations

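Of the 12 listed macrophage transcription factor genes 8 were measured. In liver 7 passed the filter and 0 were at least 1.5-fold lower or higher in both 2-choice pools, beside 5.74% and 5.92% of all probes. In hypothalamus 6 passed and 2 were lower (Irf8 at -1.31 and Zeb2 at -1.34 after normalization within tissue), beside 9.49% of all probes. Spi1, which encodes PU.1, was at -1.95 in congenic and -0.51 in B6 livers. Its levels were 8.71 (congenic, under the filter level) and 9.35 (B6) on 2-choice, against 10.66 and 9.86 on chow. Irf8, a factor of macrophages and dendritic cells, was lower in the congenic pool in all 4 strain pairs, by -0.61 on 2-choice and -1.17 on chow in liver and by -0.78 and -0.67 in hypothalamus. Its levels of 8.96 to 11.00 lay close to the filter level, and it was picked after its values were seen. Among all probes, 28.7% in liver and 25.1% in hypothalamus were lower in both strain pairs at any size. At least 1.5-fold lower in both were 7.03% and 2.37%.

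Of 26 genes with a C1q-like domain outside the complement subunits, 16 were measured. In liver 9 passed the filter, and Emilin2 was lower in both 2-choice pools (-1.22), beside 5.74% of all probes. In hypothalamus 13 passed, 0 were lower and Mmrn2, of endothelium, was higher (1.89), beside 12.4% of all probes. Mmrn2 was under the filter level in the B6 chow pool (8.67). The cerebellin gene Cbln1, which encodes a synaptic organizer, was at 8.23 to 9.24 in liver, under the filter level on average, and at 15.25 to 16.03 in hypothalamus.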
